A study of Mus musculus with 24 samples.

Results

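Diesel particles labelled C-DEP, written CDEP here, were instilled into the nose of 3 mice, and lung gene expression was compared with that of 3 mice given saline. The comparison was defined by the sample titles and rests on 6 arrays, 1 per mouse, of the 24 in the series. All mice were BALB/C females aged 8 to 10 weeks, labelled as not sensitized. The CDEP group received 150 ug of particles on day 0 and again on day 13, the saline group received saline on the same days, and lungs were taken 18 hours after the second dose. The other 6 groups of 3 received the particles N-DEP or A-DEP (NDEP, ADEP), ovalbumin (OVA, the egg protein used as a model allergen, 20 ug), or a particle together with OVA. The labels do not give the make-up of the particles, and no group without any instillation was analysed here, so the saline mice carry whatever instillation itself does. RNA came from frozen lung, and the arrays held the markers of that tissue: in saline lungs the mean log2 intensity was 13.62 ± 0.26 for the surfactant gene Sftpc, 14.02 ± 0.09 for the club cell gene Scgb1a1 and 11.51 ± 0.10 for the endothelial gene Cldn5.

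Soot that reaches the alveoli is taken up by macrophages and touches the epithelium that lines airways and alveoli. These cells are known to release chemokines, which draw neutrophils and monocytes from the blood, and acute phase proteins, which bind microbial products, iron and haem. Organic compounds carried by diesel soot can bind the aryl hydrocarbon receptor, and oxidants can activate NRF2, a factor that switches on antioxidant enzymes. The comparison asks which of these programmes stood higher or lower in lung 18 hours after the second dose.

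Of 12393 genes tested, 501 passed an adjusted p of 0.05 (4.04%), of which 283 were higher after CDEP (2.28%) and 218 lower (1.76%). An unadjusted p under 0.05 was reached by 2444 genes (19.7%). A change of at least 2-fold was reached by 36 of the higher genes (0.29%) but by 3 of the lower genes (0.0242%). Without regard to the test, all 3 CDEP arrays lay above all 3 saline arrays for 10.9% of genes and below them for 12.1%. Of the 501 genes past the test 494 had no overlap, so its absence in a called gene adds little to the call. Log2 fold changes below are given with their standard error, levels are log2 intensities, n is 3 mice per group, and adjusted p-values are from limma with Benjamini-Hochberg adjustment. An array is named by its group and its replicate number in the labels. Only 80 of the 501 calls (63 higher, 17 lower) held when any single array was left out, and these are described as holding. For Birc3, Cacna1d, Dmpk, Psmb1, Pycard, Scara5, Slc11a2 and Slc40a1, named below, every other probe set of the gene had the opposite sign, so these changes rest on single probe sets. In several other named genes the further probe sets lay nearer 0, and none passed in the same direction. Examples are Txn1 (0.54 against 0.03), Pdia6 (0.77 against 0.11), Zeb1 (-0.73 against -0.12) and F10 (0.69 against 0.04 and 0.14). Further examples are Stat3 (0.67 against 0.10 and 0.28), Mcm2 (0.89 against 0.21), Cpe (-0.79 against -0.12) and Fmo5 (-0.64 against -0.13). Signs were mixed for Ssr4 (0.73 against -0.02 and 0.11), Timm10b (0.77 against -0.18 to 0.35) and Rgs5 (-0.81 against -0.17 to 0.18). The same was true of Mylk (-0.46 against -0.27 and 0.19), Cdt1 (0.62 against -0.13 and 0.32), Mcm3 (0.66 against -0.09 to 0.61) and Mef2c (-0.59 against -0.54 to 0.11). Of 108 other probe sets of 66 named calls, 23 passed in the same direction. A gene is called dim where its group mean lies under the 25th percentile of every array of that group, so that it is not shown to lie above background.

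**Figure D1:**
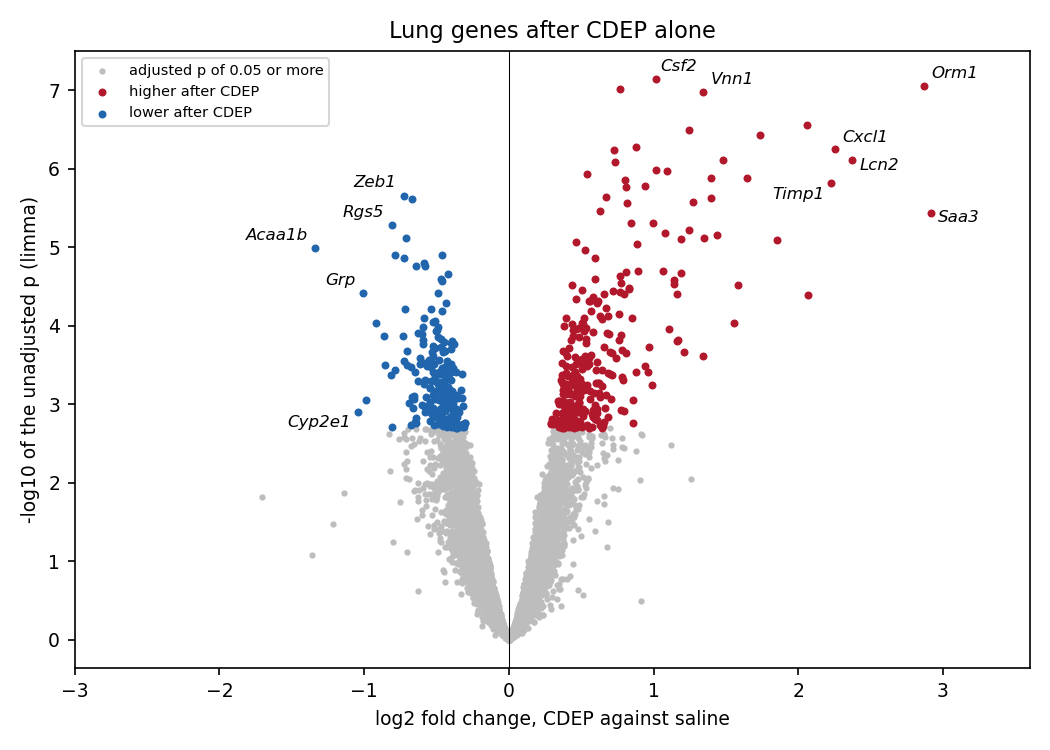
Each point is 1 of 12393 genes: the x axis is the log2 fold change of CDEP against saline and the y axis the negative log10 of the unadjusted limma p. Red points are the 283 genes higher after CDEP and blue points the 218 lower genes; the higher side reaches a log2 fold change of 2.92 (Saa3) and the lower side -1.34 (Acaa1b).

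The saline arrays differed among themselves in RNA quality and tissue makeup, in ways that moved with the groups. The 3′ minus 5′ signal difference of the control probe sets, which grows as RNA breaks down, was 0.0607 ± 0.0617 (SD) after CDEP and 0.362 ± 0.285 after saline for Gapdh, without overlap (exact permutation p = 0.1, the smallest that 3 against 3 allows, two-sided). For Actb it was 0.657 ± 0.0271 and 1.01 ± 0.196, also without overlap (exact permutation p = 0.1). Saline 1 had the highest Gapdh difference of all 24 arrays, 0.679. Without saline 1, 92 genes were higher and 55 lower. With both differences in the fit (the RNA quality covariates) 3 were higher and 0 lower by limma. All 501 called genes kept their sign, as did 9620 of all 12393 genes, but the 501 were picked by their change in these same arrays. Their medians were 0.42 in the higher and -0.36 in the lower genes, against 0.53 and -0.46. With the Gapdh difference alone as covariate 40 and 11 genes passed, and with that of Actb alone 0 and 0. Heart muscle genes averaged 7.68 ± 0.156 after CDEP and 8.11 ± 0.389 after saline (exact permutation p = 0.1), with saline 3 highest of the 24 arrays. Where in the lung sample this RNA came from was not tested. The part of RNA quality in the changes below was not tested beyond these fits.

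Acute phase and innate defence proteins included the 3 genes with the highest log2 fold changes, Saa3, Orm1 and Lcn2. Of 26 measured members 12 rose and 0 fell, with a median log2 fold change of 0.66 against -0.02 over all genes tested. With 1 array left out, 10 to 12 of its members passed, fewest without CDEP 2, CDEP 3 and saline 1. Saa3, the serum amyloid A of inflamed tissues, stood at 11.94, 12.23 and 11.98 after CDEP and 8.31, 9.86 and 9.21 after saline. Every CDEP array lay more than 2 log2 units above the highest saline array, and the difference was 2.92 ± 0.49 (adjusted p = 0.00151). Orm1, a plasma carrier protein of the alpha-1-acid glycoprotein type, had levels of 7.65, 7.66 and 7.81 after CDEP and 4.83, 4.76 and 4.92 after saline, among the tightest of the leading genes, and rose by 2.87 ± 0.38 (adjusted p = 0.000323). Its relative Orm2 rose by 1.48 ± 0.22 from a dim level of 3.64 ± 0.16, and Saa1 rose by 1.74 ± 0.25 from a dim level of 4.02 ± 0.17, so both increases may be compressed. Lcn2, which binds the iron carriers of bacteria, stood at 12.16, 12.10 and 11.91 after CDEP and 8.81, 10.39 and 9.86 after saline; saline 1 was the lowest array and the groups did not overlap.

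Further members rose over a narrower range. The protease inhibitor Serpina3n stood at 9.65, 9.56 and 10.01 after CDEP and 8.47, 8.51 and 8.20 after saline (difference 1.35 ± 0.24), and Itih4, an inter-alpha-trypsin inhibitor chain, at 9.70, 9.47 and 9.82 after CDEP and 7.81, 9.03 and 8.58 after saline (difference 1.19 ± 0.23). Cd14 and Lbp, which pass bacterial endotoxin to its receptor, rose by 1.16 ± 0.23 and 0.72 ± 0.14, and the airway antiprotease Slpi rose by 0.995 ± 0.17. All of these calls held. The haem carrier Hpx rose by 1.17 ± 0.26 but lost its call without CDEP 2 (adjusted p = 0.0696), CDEP 3 (adjusted p = 0.0505) or saline 1 (adjusted p = 0.0617). Saa2, dim in both groups, was at 0.42 ± 0.12 (adjusted p = 0.0495) and passed in 1 of the 6 fits with an array left out. The fibrinogen chains Fga, Fgb and Fgg were dim in both groups and did not pass. The iron oxidase Cp (0.72 ± 0.21, adjusted p = 0.057), the antibacterial lectin Reg3g (1.12 ± 0.34, adjusted p = 0.0641) and haptoglobin Hp (0.34 ± 0.17, adjusted p = 0.277) did not pass either, although their arrays did not overlap.

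**Figure D2:**
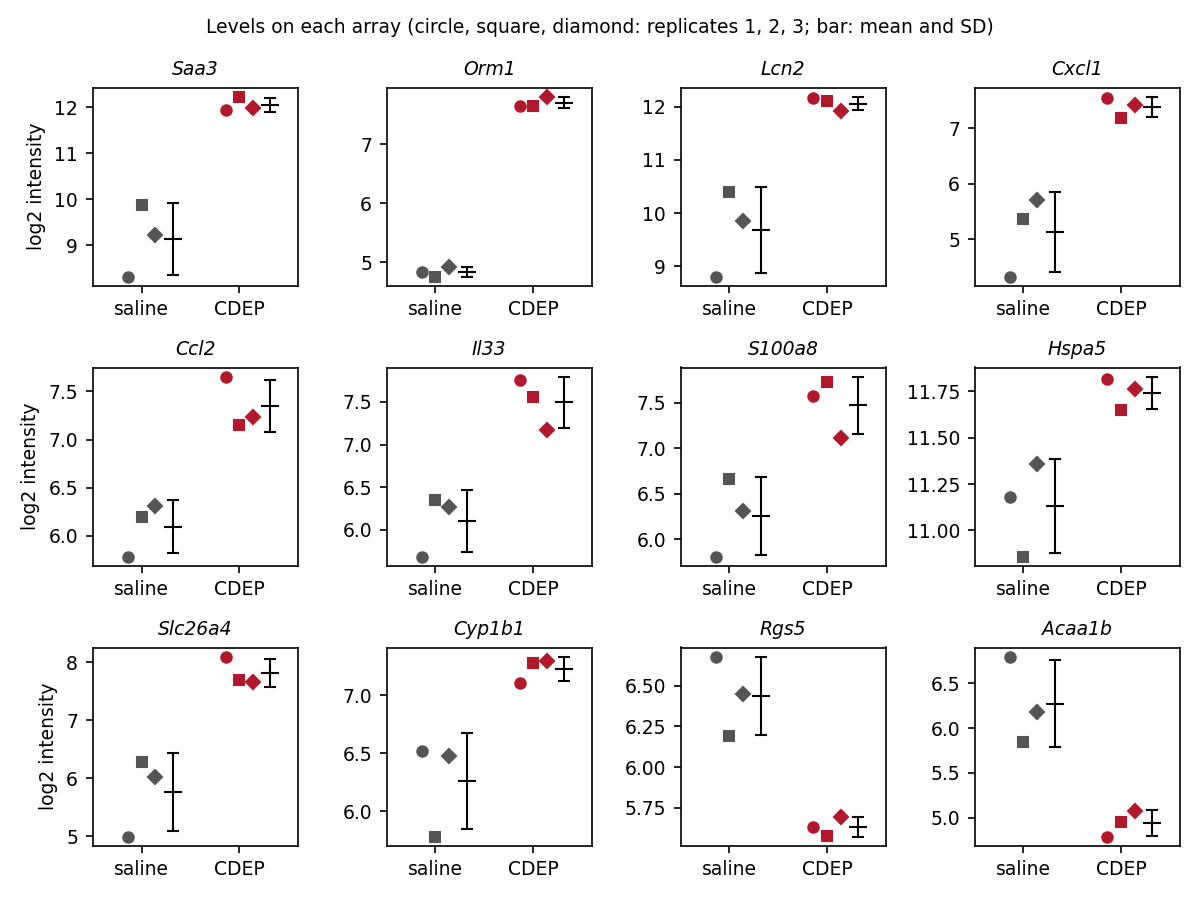
Log2 intensity (y axes, each with its own range) of 12 genes on each of the 3 saline and 3 CDEP arrays, with group mean and SD as bars. In all 12 panels the groups do not overlap; 10 genes are higher after CDEP, Rgs5 and Acaa1b are lower, and the saline arrays spread more than the CDEP arrays for Saa3, Lcn2, Cxcl1 and Slc26a4.

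Of the chemokines for neutrophils, Cxcl1, a ligand of the neutrophil receptor Cxcr2, stood at 7.55, 7.19 and 7.43 after CDEP and 4.33, 5.37 and 5.72 after saline, a rise of 2.25 ± 0.33 (adjusted p = 0.000721). Cxcl5, an epithelial ligand of the same receptor, stood at 7.66, 7.02 and 7.38 after CDEP and 4.67, 5.995 and 5.83 after saline, a rise of 1.85 ± 0.33. In both genes saline 1 was lowest and no saline array reached the CDEP arrays. Cxcl15, a lung epithelial chemokine, rose by 0.53 ± 0.12 and the platelet chemokine Pf4 by 0.62 ± 0.16. Cxcl15 lost its call without CDEP 1 (adjusted p = 0.0738), CDEP 2 (adjusted p = 0.0544) or saline 1 (adjusted p = 0.0769), and Pf4 did so without CDEP 2 (adjusted p = 0.152), CDEP 3 (adjusted p = 0.0777), saline 1 (adjusted p = 0.0867) or saline 2 (adjusted p = 0.0673). Cxcl2 (0.72 ± 0.27, adjusted p = 0.121), the receptor Cxcr2 (0.30 ± 0.12) and Ppbp (0.01 ± 0.35) did not pass. In all, 4 of 7 members rose and 0 fell, median 0.62. Between 2 and 4 of these genes passed with 1 array left out, fewest without CDEP 2 and saline 1.

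The Cxcl1 promoter is shown because this gene rose most among the chemokines and its promoter is a textbook target of NF-kB, the transcription factor of inflammatory signalling. Within the 250 bases before the start site (RefSeq, GRCm38.p6, chr5:90890995-90891244, plus strand) a loosened form of the NF-kB site, searched on both strands, occurred at 2 places that do not overlap, beginning at positions -89 (reverse strand) and -71 from the start. Capitals mark the matches.
Cxcl1: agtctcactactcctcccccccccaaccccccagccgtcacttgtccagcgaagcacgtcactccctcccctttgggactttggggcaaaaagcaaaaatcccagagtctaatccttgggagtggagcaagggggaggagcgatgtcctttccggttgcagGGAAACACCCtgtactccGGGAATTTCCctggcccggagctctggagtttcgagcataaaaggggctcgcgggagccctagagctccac
The pattern was held by 4.11% of all 32851 promoters of that length. Among the called genes with a promoter in the table it was found in 1 of 3 neutrophil chemokine genes (Cxcl1), 1 of 5 monocyte chemokine genes (Ccl9) and 1 of 9 acute phase genes (Serpina3n). A match is a description of the letters and does not show binding.

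Of 12 monocyte chemokines and receptors 7 rose and 0 fell. Their median was 0.88, and 0.53 with the RNA quality covariates, under which that of the neutrophil chemokines was 0.66. The number past the test was 4 to 7 with 1 array left out and lowest without CDEP 2. Ccl2, the main ligand of the monocyte receptor Ccr2, stood at 7.65, 7.15 and 7.23 after CDEP and 5.78, 6.20 and 6.31 after saline and rose by 1.25 ± 0.22. Ccl12, another Ccr2 ligand of the mouse, stood at 5.81, 6.26 and 5.34 after CDEP and 4.37, 4.72 and 4.75 after saline and rose by 1.19 ± 0.21, and its neighbour Ccl7 rose by 0.80 ± 0.22 in a call that passed in 1 of the 6 fits with an array left out. The receptors moved in the same direction: Ccr1 stood at 6.96, 7.04 and 6.50 after CDEP and 5.40, 5.51 and 5.41 after saline and rose by 1.40 ± 0.23, and Ccr2 stood at 6.35, 6.29 and 6.11 after CDEP and 5.15, 5.35 and 5.06 after saline and rose by 1.07 ± 0.20. No saline array overlapped with a CDEP array in these genes. Of the ligands of Ccr1, Ccl9 rose by 1.10 ± 0.24 and Ccl3 by 0.96 ± 0.23; Ccl9 lost its call without CDEP 2 (adjusted p = 0.0536), and Ccl3 lost its call without CDEP 1 (adjusted p = 0.075), CDEP 2 (adjusted p = 0.0758), CDEP 3 (adjusted p = 0.0532) or saline 1 (adjusted p = 0.0986). Ccl6 (0.76 ± 0.24, adjusted p = 0.0799), Ccl8 (0.66 ± 0.25, adjusted p = 0.133) and Ccl4 (0.56 ± 0.17, adjusted p = 0.0661) did not pass. Cx3cr1, a receptor of patrolling monocytes, was at 0.07 ± 0.13.

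Of 18 chemokines of lymphoid tissue and T cells 3 rose and 0 fell, with a median of 0.10 (-0.03 with the RNA quality covariates). Cxcl13, which guides B cells, stood at 8.61, 8.50 and 9.01 after CDEP and 6.83, 6.98 and 7.65 after saline and rose by 1.56 ± 0.33. Cxcl13 lost its call without CDEP 3 (adjusted p = 0.058) or saline 1 (adjusted p = 0.0617). Ccl17, a dendritic cell chemokine for T cells, rose by 0.78 ± 0.18 and the scavenger chemokine Cxcl16 by 0.53 ± 0.14; neither call held, and without saline 1 or CDEP 3 0 of the 18 genes passed. The eosinophil chemokine Ccl11 was at 0.06 ± 0.14, and the interferon-induced Cxcl9 and Cxcl10 at -0.01 ± 0.33 and 0.43 ± 0.29, none of which passed.

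In the interleukin 1 family 5 of 13 members rose, namely 2 inhibitors, 2 ligands and an adaptor. The list median was 0.12 (0.08 with the RNA quality covariates). Il1rn, the receptor antagonist, stood at 7.003, 7.22 and 7.09 after CDEP and 5.43, 5.49 and 5.45 after saline and rose by 1.65 ± 0.26 (adjusted p = 0.000907), and the decoy receptor Il1r2 rose by 0.86 ± 0.24. Il33, an alarmin stored in alveolar type 2 cells, stood at 7.76, 7.56 and 7.17 after CDEP and 5.68, 6.35 and 6.26 after saline and rose by 1.40 ± 0.22. The ligand Il1b rose by 0.99 ± 0.25 and the inflammasome adaptor Pycard by 0.52 ± 0.13. The calls of Il1rn and Il33 held. Il1b lost its call without CDEP 1 (adjusted p = 0.0735), CDEP 2 (adjusted p = 0.0838), CDEP 3 (adjusted p = 0.0759) or saline 1 (adjusted p = 0.121). Il1r2 and Pycard each lost theirs without CDEP 2 and without saline 1 (adjusted p = 0.21 and 0.11 without saline 1). Without CDEP 1 or CDEP 3, 3 of the 13 passed. Il1a (-0.11 ± 0.11), Il18 (-0.33 ± 0.13), Casp1 (0.12 ± 0.12) and Nlrp3 (0.01 ± 0.11) did not pass.

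The gene with the smallest p was the growth factor Csf2 (GM-CSF), which sustains alveolar macrophages and activates neutrophils. Its levels were 6.51, 6.46 and 6.65 after CDEP and 5.18, 5.71 and 5.67 after saline, a rise of 1.02 ± 0.13 (adjusted p = 0.000323), and the call held. Its receptor chain Csf2rb rose by 0.79 ± 0.20, the granulocyte receptor Csf3r by 0.86 ± 0.23, the interleukin 17 receptor Il17ra by 0.60 ± 0.11 and the oncostatin M receptor Osmr by 0.54 ± 0.15. Among these receptors only the Il17ra call held. In total 5 of 24 cytokines and receptors rose and 0 fell, with a median of 0.11 (0.05 with the RNA quality covariates) and 2 to 4 passing with 1 array left out. Il6 (0.38 ± 0.19, dim in both groups) and Tnf (0.29 ± 0.10, adjusted p = 0.111) did not pass. Of 19 NF-kB pathway genes 4 rose: the adhesion molecule Icam1 by 0.51 ± 0.11, the subunit Nfkb2 by 0.57 ± 0.13, the regulator Nfkbiz by 0.53 ± 0.12 and the apoptosis inhibitor Birc3 by 0.57 ± 0.16. The median of that list was 0.28 (0.14 with the RNA quality covariates), and 0 of the 19 passed without saline 1. Stat3, which carries interleukin 6 type signals to acute phase genes, rose by 0.67 ± 0.11 and the mitochondrial superoxide dismutase Sod2 by 0.81 ± 0.13; both calls held, and both genes were chosen after their values were seen.

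Of 14 neutrophil markers 6 rose and 0 fell, median 0.35. With 1 array left out, 2 to 7 of its members passed, fewest without CDEP 2 and saline 1. Cd177, a neutrophil surface protein, stood at 9.11, 8.62 and 8.98 after CDEP and 6.84, 6.50 and 7.16 after saline and rose by 2.07 ± 0.41, and Lrg1, a secreted protein of neutrophils that other inflamed cells also make, rose by 1.58 ± 0.31. The calcium-binding pair S100a8 and S100a9 rose by 1.21 ± 0.28 and 1.16 ± 0.26: S100a8 lost its call without CDEP 1 (adjusted p = 0.0627), CDEP 2 (adjusted p = 0.0807) or saline 1 (adjusted p = 0.0909), and S100a9 lost its call without CDEP 1 (adjusted p = 0.0544), CDEP 2 (adjusted p = 0.0536) or saline 1 (adjusted p = 0.0867). The lectin receptor Clec4d rose by 0.77 ± 0.17, and Csf3r, given above, was the remaining call. The granule genes Mpo (0.06 ± 0.11), Camp (-0.15 ± 0.17), Ngp (0.08 ± 0.13) and Mmp9 (0.17 ± 0.15) overlapped between the groups, and Mmp8 was at 0.41 ± 0.14 (adjusted p = 0.103). The granule protease Elane, the receptor Cxcr2 and the cytokine Il1f9, at 0.02, 0.30 and 0.24, did not pass either. In whole lung RNA, more cells of a type and more RNA per cell cannot be told apart, here and for every cell marker below.

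Of 16 monocyte and macrophage markers 5 rose and 0 fell, median 0.40 (0.21 with the RNA quality covariates). Besides Ccr2 these were the Fc receptor genes Fcgr1 (0.67 ± 0.18), Fcgr3 (0.51 ± 0.14) and Fcer1g (0.61 ± 0.17) and the signalling adaptor Tyrobp (0.68 ± 0.17). Only the Ccr2 call held: with any array other than saline 2 left out, 1 of the 16 passed. Cd68, a lysosomal protein of macrophages, was at 0.66 ± 0.26 (adjusted p = 0.151), whereas Adgre1 (-0.11 ± 0.11), Lyz2 (0.17 ± 0.12) and Mrc1 (-0.10 ± 0.14) overlapped between groups. None of the 11 alveolar macrophage markers passed (median -0.07); Siglecf was dim in both groups and Pparg, the factor that sets alveolar macrophage identity, was at -0.21 ± 0.15 (adjusted p = 0.492). Among 23 genes of particle uptake, lysosome and tissue macrophage activation, 3 rose: Ch25h, which makes 25-hydroxycholesterol, stood at 7.75, 7.66 and 7.51 after CDEP and 6.23, 6.53 and 6.75 after saline and rose by 1.14 ± 0.22 in a call that held, while the galectin Lgals3 (0.67 ± 0.18) and the protease Ctsz (0.59 ± 0.17) lost theirs without each of the 6 arrays in turn. Mmp12, the macrophage elastase, stood at 7.50, 7.45 and 7.10 after CDEP and 6.43, 6.43 and 6.55 after saline (0.88 ± 0.28, adjusted p = 0.0697), Ctsk was at 0.72 ± 0.22 (adjusted p = 0.0682) and Gpnmb at 0.44 ± 0.26. Retnla, a gene of alternatively activated macrophages, was at 1.26 ± 0.44 (adjusted p = 0.107). The median of these 23 genes was 0.29 (0.15 with the RNA quality covariates). The 9 class II antigen presentation genes had a median of 0.35 (0.13 with the RNA quality covariates) with 0 past the test, for example H2-Ab1 at 0.45 ± 0.14 (adjusted p = 0.063).

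Complement genes rose in 5 of 16 cases with 0 lower, median 0.47. Cfb, the protease of the alternative pathway, stood at 8.70, 8.61 and 8.86 after CDEP and 7.02, 7.63 and 7.21 after saline and rose by 1.44 ± 0.25. Properdin Cfp, which stabilizes that pathway, rose by 0.65 ± 0.19. Of the classical pathway, the proteases C1ra and C1s1 rose by 0.63 ± 0.11 and 0.57 ± 0.12 and the recognition chain C1qc by 0.58 ± 0.16, with C1qa (0.43 ± 0.14) and C1qb (0.50 ± 0.16) not past the test. The calls of Cfb and C1ra held; 3 to 4 of the 16 passed with 1 array left out. Of 9 genes for NADPH oxidases and nitric oxide synthases, the phagocyte subunits Ncf4 (0.81 ± 0.13, which held), Cyba (0.65 ± 0.19) and Rac2 (0.60 ± 0.16) rose. Nox4, the oxidase of fibroblasts and vessels, stood at 7.53, 7.41 and 7.66 after CDEP and 9.26, 8.06 and 8.25 after saline. It fell by 0.99 ± 0.26, and without saline 1 the change was -0.62 (adjusted p = 0.195). Of the 9 genes only Ncf4 passed without CDEP 1, CDEP 2, CDEP 3 or saline 1. Noxo1, an epithelial oxidase organizer chosen after its values were seen, rose by 1.10 ± 0.17.

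**Figure D3:**
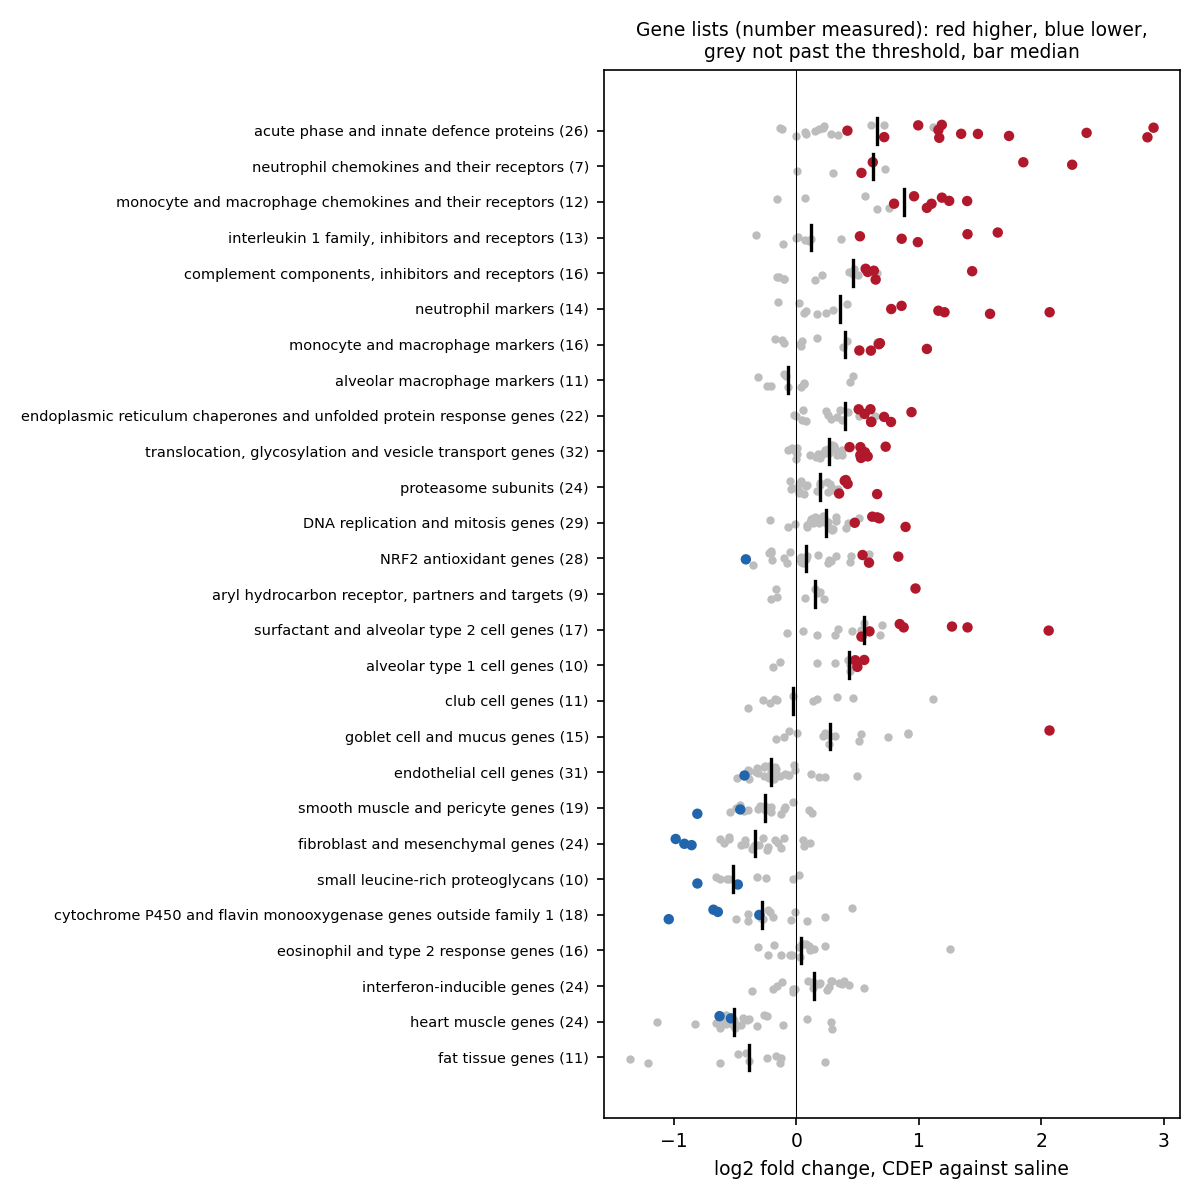
Each row is a gene list with its number of measured genes, each point a gene at its log2 fold change of CDEP against saline (x axis), red for higher and blue for lower genes past the threshold and grey for the rest, with the list median as a bar. Inflammatory, chaperone and surfactant lists hold red points and medians above 0, such as 0.66 for acute phase proteins, whereas fibroblast, proteoglycan and P450 lists hold blue points and medians below 0.

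Several chaperones of the endoplasmic reticulum, which fold secreted and membrane proteins, were higher. Of 22 chaperone and unfolded protein response genes 8 rose and 0 fell, median 0.39. Between 4 and 7 of these genes passed with 1 array left out, fewest without CDEP 3 and saline 1. Manf, a secreted stress protein of this compartment, stood at 10.52, 10.51 and 10.87 after CDEP and 9.28, 9.86 and 9.94 after saline and rose by 0.94 ± 0.15 (adjusted p = 0.000969). Hspa5, the central chaperone BiP, stood at 11.82, 11.65 and 11.76 after CDEP and 11.18, 10.86 and 11.36 after saline and rose by 0.61 ± 0.12. The disulfide isomerases Pdia6 and Pdia3 rose by 0.77 ± 0.15 and 0.56 ± 0.11, and all 4 of these calls held. The chaperones Hsp90b1 (0.61 ± 0.14), Sdf2l1 (0.72 ± 0.18), Dnajb9 (0.60 ± 0.15) and Dnajb11 (0.51 ± 0.12) rose as well, each losing its call without saline 1 and at least 2 other arrays. Creld2 (0.65 ± 0.20, adjusted p = 0.0621), Herpud1 (0.51 ± 0.18, adjusted p = 0.103) and Canx (0.37 ± 0.11, adjusted p = 0.0621) did not pass. The transcription factors of the response, Xbp1 (-0.02 ± 0.11), Atf4 (0.05 ± 0.12) and Ddit3 (0.25 ± 0.10), overlapped between groups.

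The promoters of 3 of these chaperones are shown because they hold the endoplasmic reticulum stress element, the sequence through which ATF6 and NF-Y are known to switch on such genes. The element was searched on both strands in the 250 bases before each start site (RefSeq, GRCm38.p6), and capitals mark each match. Hspa5 lies at chr2:34771840-34772089 on the plus strand with a match beginning at position -65 from the start. Hsp90b1 lies at chr10:86705445-86705694 on the minus strand with matches beginning at -212 and -107, the latter on the opposite strand. Pdia6 lies at chr12:17266339-17266588 on the plus strand with a match beginning at -98.
Hspa5: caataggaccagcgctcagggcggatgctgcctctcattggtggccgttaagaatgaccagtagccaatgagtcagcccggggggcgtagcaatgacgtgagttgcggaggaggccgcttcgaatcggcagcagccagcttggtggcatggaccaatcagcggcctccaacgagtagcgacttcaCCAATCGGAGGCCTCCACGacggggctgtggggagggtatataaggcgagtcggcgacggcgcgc
Hsp90b1: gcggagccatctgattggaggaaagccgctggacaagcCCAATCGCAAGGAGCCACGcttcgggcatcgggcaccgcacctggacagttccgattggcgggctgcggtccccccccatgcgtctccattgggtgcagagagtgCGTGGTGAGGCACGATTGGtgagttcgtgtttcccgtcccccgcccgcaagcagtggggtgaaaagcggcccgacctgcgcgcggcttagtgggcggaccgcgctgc
Pdia6: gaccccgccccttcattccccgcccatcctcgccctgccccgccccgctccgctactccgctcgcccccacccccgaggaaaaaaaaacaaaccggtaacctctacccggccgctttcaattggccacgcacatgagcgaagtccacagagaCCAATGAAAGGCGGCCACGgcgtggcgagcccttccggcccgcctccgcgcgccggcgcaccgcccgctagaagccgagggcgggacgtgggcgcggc
These were 3 of the 7 called chaperone genes with a promoter in the table. Over all 32851 promoters, counted by promoter and not by gene, 37 (0.113%) held the pattern. The element is known from genes of this kind, and chaperones that were not called were not searched. These counts therefore do not tie the element to CDEP. The element was found in 0 of the 6 called translocation and glycosylation genes and 0 of the 9 called acute phase genes that had a promoter there. The shorter endoplasmic reticulum stress element II was found in 0 of the 7 chaperone promoters and in 0.0304% of all.

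Genes of the machinery that feeds proteins into the secretory route were described by a second list. Of 32 translocation, glycosylation and vesicle transport genes 8 rose and 0 fell, median 0.26. The number past the test was 3 to 11 with 1 array left out and lowest without CDEP 2. Ssr4, a subunit of the translocon-associated complex, stood at 9.26, 9.38 and 9.32 after CDEP and 8.60, 8.60 and 8.58 after saline and rose by 0.73 ± 0.11 (adjusted p = 0.000721). The oligosaccharyltransferase subunits Rpn2, Ddost and Ostc rose by 0.53 ± 0.10, 0.52 ± 0.11 and 0.54 ± 0.13, the channel subunit Sec61b by 0.56 ± 0.14 and the vesicle coat subunits Sec24d and Sec23b by 0.58 ± 0.12 and 0.43 ± 0.12. Gmppb, which makes the mannose donor, rose by 0.52 ± 0.14. The calls of Ssr4, Rpn2 and Ddost held. Of 14 heat shock genes 0 passed, with a median of 0.22 that went to -0.04 without saline 1; Hspd1 was at 0.56 ± 0.17 and Hsp90aa1 at 0.53 ± 0.19.

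Small rises were seen in proteasome and DNA replication genes. The proteasome list had a median of 0.19 (0.08 with the RNA quality covariates). Of 24 proteasome subunits 5 rose, Psmb2 (0.66 ± 0.19), Psme1 (0.42 ± 0.12), Psmb1 (0.40 ± 0.09), Psmc4 (0.39 ± 0.09) and Psmb6 (0.35 ± 0.10); 0 of the 24 passed without saline 1 or without CDEP 1. Of 29 replication and mitosis genes 5 rose and 0 fell, median 0.24 (0.31 with the RNA quality covariates). Mcm2, a subunit of the replicative helicase, stood at 7.13, 6.81 and 6.98 after CDEP and 5.98, 6.23 and 6.02 after saline and rose by 0.89 ± 0.17 in a call that held. Mcm5 (0.68 ± 0.15), Mcm3 (0.66 ± 0.15), the licensing factor Cdt1 (0.62 ± 0.16) and the sliding clamp Pcna (0.48 ± 0.11) rose too, but 1 of the 29 passed without saline 1 or without CDEP 3. Of other replication genes, Mcm6, Mcm4, Mcm7, Cdc6 and Ccne1 were at 0.51, 0.42, 0.32, 0.24 and 0.23 and did not pass. The mitotic genes Mki67 (0.15 ± 0.17) and Top2a (0.29 ± 0.18) did not pass.

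Targets of the aryl hydrocarbon receptor were represented by a single call. Cyp1b1, which oxidizes polycyclic hydrocarbons, stood at 7.10, 7.28 and 7.30 after CDEP and 6.52, 5.78 and 6.48 after saline and rose by 0.97 ± 0.22 (adjusted p = 0.0165); Cyp1b1 lost its call without CDEP 2 (adjusted p = 0.0602), CDEP 3 (adjusted p = 0.0605) or saline 2 (adjusted p = 0.0616). Cyp1a1, the best known target, stood at 7.60, 7.68 and 7.56 after CDEP and 7.71, 7.63 and 6.84 after saline with overlap (0.23 ± 0.26), and Cyp1a2 (0.19 ± 0.10), Tiparp (0.18 ± 0.14) and the receptor Ahr itself (-0.16 ± 0.21) did not pass. The 2 other Cyp1b1 probe sets were at 0.15 and 0.20 and did not pass. In all 1 of 9 genes was called, median 0.15 (0.03 with the RNA quality covariates).

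Antioxidant genes gave a mixed picture, with 3 of 28 NRF2 target genes higher, 1 lower and a median of 0.08 (0.19 with the RNA quality covariates). Hmox1, which breaks down haem, stood at 8.09, 7.92 and 8.29 after CDEP and 6.92, 7.58 and 7.30 after saline and rose by 0.83 ± 0.16; Hmox1 lost its call without saline 1 (adjusted p = 0.0548). Txn1, thioredoxin, stood at 11.55, 11.59 and 11.52 after CDEP and 11.03, 10.95 and 11.07 after saline and rose by 0.54 ± 0.08 in a call that held, and Gclc, the catalytic subunit of glutathione synthesis, rose by 0.59 ± 0.16. The glutathione transferase Gstm1 fell by 0.41 ± 0.10. The classical targets Nqo1 (-0.21 ± 0.14), Gclm (0.26 ± 0.15), Txnrd1 (0.18 ± 0.11) and Me1 (0.55 ± 0.16, adjusted p = 0.0564) did not pass.

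Of 13 metal-handling genes 4 rose and 1 fell, median 0.46 (0.26 with the RNA quality covariates). Mt2, a metallothionein that binds zinc and copper, rose by 1.34 ± 0.31, its levels being 8.32, 9.34 and 8.95 after CDEP and 7.12, 7.88 and 7.57 after saline; Mt2 lost its call without CDEP 2 (adjusted p = 0.0967), CDEP 3 (adjusted p = 0.0639) or saline 1 (adjusted p = 0.0874). The transferrin receptor Tfrc, for iron uptake, stood at 9.45, 9.34 and 9.68 after CDEP and 8.45, 8.93 and 8.66 after saline and rose by 0.81 ± 0.15 in a call that held. The zinc and iron importer Slc39a14 rose by 0.71 ± 0.16 and the iron importer Slc11a2 by 0.46 ± 0.12. The iron exporter ferroportin, Slc40a1, stood at 6.02, 6.11 and 6.25 after CDEP and 6.84, 6.57 and 6.57 after saline and fell by 0.53 ± 0.12; Slc40a1 lost its call without CDEP 1 (adjusted p = 0.0768), CDEP 2 (adjusted p = 0.0602) or saline 1 (adjusted p = 0.0874). The calls of Slc11a2 and Slc40a1 rest on single probe sets: the other probe sets ran the other way, at -0.25 and -0.02 for Slc11a2 and 0.25 for Slc40a1. Mt1 (0.92 ± 0.27), the ferritin chain Fth1 (0.44 ± 0.13, adjusted p = 0.0543), the importer Slc39a8 (0.48) and the zinc exporter Slc30a1 (0.18) did not pass. Steap4, a metalloreductase chosen after its values were seen, rose by 1.15 ± 0.22.

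In the list of alveolar type 2 cells, which make surfactant, 7 of 17 rose and 0 fell, median 0.55 (0.28 with the RNA quality covariates). With 1 array left out, 5 to 11 of its members passed, fewest without CDEP 1 and saline 1. Slc26a4, the anion exchanger pendrin, which also stands in the goblet cell list, stood at 8.10, 7.70 and 7.66 after CDEP and 4.99, 6.27 and 6.01 after saline and rose by 2.06 ± 0.29 (adjusted p = 0.00066). Chil1, a chitinase-like protein, rose by 1.27 ± 0.21. Sftpd, the collectin surfactant protein D, stood at 12.51, 12.46 and 12.79 after CDEP and 11.39, 11.80 and 12.02 after saline and rose by 0.84 ± 0.14; the phosphate carrier Slc34a2 rose by 0.60 ± 0.12 and the surfactant protease Napsa by 0.88 ± 0.21. All but Napsa and Cxcl15 held. The hydrophobic surfactant proteins were not called, with Sftpc at 0.17 ± 0.10 and Sftpb at 0.31 ± 0.14, nor were the lipid transporter Abca3 (0.05 ± 0.12), Sftpa1 (0.55 ± 0.16, adjusted p = 0.0545) and the transcription factor Etv5 (0.68 ± 0.22, adjusted p = 0.075).

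Of 10 alveolar type 1 genes 3 rose, Krt7 (0.55 ± 0.16), Rtkn2 (0.50 ± 0.13) and Pdpn (0.48 ± 0.13). The list median of 0.43 went to 0.16 without saline 1 and to 0.09 with the RNA quality covariates, and 0 of the 10 passed without saline 1, CDEP 1 or CDEP 2; Ager was at 0.44 ± 0.17 with overlap. None of 11 club cell genes (median -0.03, or 0.29 with the RNA quality covariates) and none of 7 ciliated cell genes (median 0.07, or 0.31 with the RNA quality covariates) passed, with Scgb1a1 at -0.03 ± 0.10 and Foxj1 at 0.27 ± 0.20. Of 15 goblet cell and mucus genes only Slc26a4 rose. The gel-forming mucins Muc5ac (0.23 ± 0.18) and Muc5b (0.75 ± 0.28, adjusted p = 0.122) and the goblet cell gene Clca1 (0.91 ± 0.90) did not pass, the last with levels of 5.20, 3.87 and 7.29 after CDEP and 3.54, 4.59 and 5.48 after saline that spread widely. Grp, a peptide of neuroendocrine cells, stood at 5.60, 5.39 and 5.12 after CDEP and 7.05, 5.95 and 6.13 after saline and fell by 1.01 ± 0.20 in a call that held; 6 of the 9 neuroendocrine genes were dim in both groups.

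Other leading genes lay outside these groups. Timp1, an inhibitor of matrix metalloproteinases, stood at 9.45, 9.51 and 9.44 after CDEP and 7.07, 7.41 and 7.23 after saline and rose by 2.23 ± 0.35 (adjusted p = 0.000951). Vnn1, a pantetheinase, stood at 6.88, 6.82 and 7.03 after CDEP and 5.36, 5.60 and 5.75 after saline and rose by 1.34 ± 0.18 (adjusted p = 0.000323), and Arg2, the mitochondrial arginase, rose by 1.25 ± 0.18 (adjusted p = 0.00066). Coagulation factor F10 rose by 0.69 ± 0.14. Timm10b of the mitochondrial import system (0.77 ± 0.10) and Tmem243 (0.88 ± 0.13), rose as well. All 6 calls held. The prostaglandin synthase Ptges rose by 0.56 ± 0.13, a call lost without CDEP 2, CDEP 3, saline 1 (adjusted p = 0.0611) or saline 3.

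Of the 25 lowest genes 8 held when any array was left out, against 22 of the 25 highest. The lists of fibroblast, vessel wall and matrix genes held several of them. Of 24 fibroblast and mesenchymal genes 3 fell and 0 rose, median -0.34. Besides Nox4 these were the lipid transporter Abca8a, at 8.65, 8.77 and 8.97 after CDEP and 10.13, 9.27 and 9.73 after saline (-0.92 ± 0.20), and the ferritin receptor Scara5, at 6.48, 6.50 and 6.10 after CDEP and 7.69, 6.77 and 7.20 after saline (-0.86 ± 0.20). Between 0 and 5 of these genes passed with 1 array left out, fewest without saline 1. Abca8a was at -0.70 without saline 1 (adjusted p = 0.0731) and Scara5 at -0.62 (adjusted p = 0.118). Pdgfra (-0.33 ± 0.22) and Lum (-0.55 ± 0.21) did not pass.

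Small leucine-rich proteoglycans, which organize collagen fibrils, had a median of -0.51 over 10 genes, or -0.34 without saline 1. Of the 10, 2 fell and 0 rose, and 0 passed without CDEP 1, CDEP 2, CDEP 3 or saline 1. Ogn stood at 10.29, 10.16 and 9.74 after CDEP and 11.34, 10.61 and 10.67 after saline (-0.81 ± 0.23, adjusted p = 0.0495) and Omd fell by 0.48 ± 0.12; Ogn lost its call without CDEP 1 (adjusted p = 0.072), CDEP 2 (adjusted p = 0.0977), CDEP 3 (adjusted p = 0.195), saline 1 (adjusted p = 0.231) or saline 3 (adjusted p = 0.0661). Decorin Dcn (-0.66 ± 0.20, adjusted p = 0.0627) and Prelp (-0.57 ± 0.18, adjusted p = 0.0706) did not pass. Of 26 matrix genes, Itih5, a hyaluronan-binding inhibitor chain (-0.86 ± 0.19), and the basement membrane chain Col4a5 (-0.58 ± 0.15) fell and 0 rose, with 0 of the 26 past the test without saline 1 or without CDEP 1. The fibrillar collagens Col1a1 (-0.05 ± 0.14) and Col3a1 (0.08 ± 0.13) overlapped between groups, elastin Eln was at -0.54 ± 0.16 (adjusted p = 0.0518) and Col14a1 at -0.72 ± 0.21 (adjusted p = 0.0543). Htra3, a secreted protease, fell by 0.71 ± 0.15 and Ltbp1, which tethers latent TGF-beta to matrix, by 0.71 ± 0.13, the latter a call that held.

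Of 19 smooth muscle and pericyte genes 2 fell and 0 rose, median -0.26, and both calls held. Rgs5, a G protein regulator and pericyte marker, stood at 5.63, 5.57 and 5.69 after CDEP and 6.68, 6.19 and 6.45 after saline and fell by 0.81 ± 0.14 (adjusted p = 0.00194). Mylk, myosin light chain kinase, stood at 10.36, 10.38 and 10.45 after CDEP and 11.07, 10.72 and 10.77 after saline and fell by 0.46 ± 0.09. As given above, the other probe sets of Rgs5 and of Mylk had mixed signs. The defining genes Acta2 (-0.26 ± 0.11), Myh11 (-0.43 ± 0.15, adjusted p = 0.103), Pdgfrb (-0.49 ± 0.18, adjusted p = 0.117) and Notch3 (-0.46 ± 0.14, adjusted p = 0.066) did not pass. Of 31 endothelial genes only Vwf fell (-0.43 ± 0.11, median of the list -0.21, or -0.33 with the RNA quality covariates), a call that passed in 1 of the 6 fits with an array left out, and Cldn5 (-0.27 ± 0.12, adjusted p = 0.216), Tek (-0.49 ± 0.18) and Cdh5 (-0.06 ± 0.12) did not pass.

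Some transcription factors fell, named here singly and not as a group. Zeb1, a repressor active in mesenchymal cells, stood at 8.94, 9.14 and 9.16 after CDEP and 10.03, 9.78 and 9.61 after saline and fell by 0.73 ± 0.12 (adjusted p = 0.00116). Tal1, known from blood and endothelial development, stood at 6.38, 6.35 and 6.15 after CDEP and 7.01, 6.94 and 6.95 after saline and fell by 0.67 ± 0.11 (adjusted p = 0.00116). Both calls held. Snai2 (-0.60 ± 0.13), Mef2c (-0.59 ± 0.12), Tcf4 (-0.47 ± 0.11) and Ebf1 (-0.60 ± 0.16) fell too; these 4 were chosen after their values were seen, and each lost its call without saline 1 and 1 or more other arrays. Of 17 clock genes Bhlhe40 rose by 0.74 ± 0.11, Clock fell by 0.49 ± 0.10 and Arntl fell by 0.51 ± 0.14; the first 2 calls held and the last was lost without each of the 6 arrays in turn. Nr1d1 (0.66 ± 0.21, adjusted p = 0.078) and Per2 (-0.09 ± 0.26) did not pass.

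Acaa1b, a peroxisomal thiolase, was the lowest gene called, at 4.79, 4.95 and 5.07 after CDEP and 6.80, 5.84 and 6.18 after saline, and fell by 1.34 ± 0.24 (adjusted p = 0.00296) in a call that held. It was the only one of 22 fatty acid genes past the test, a share near that of all genes. Of 18 cytochrome P450 and flavin monooxygenase genes outside family 1, 4 fell and 0 rose, median -0.28 (-0.15 with the RNA quality covariates). Cyp2e1, which oxidizes ethanol and small solvents, stood at 6.06, 6.13 and 6.54 after CDEP and 7.15, 6.96 and 7.74 after saline (-1.04 ± 0.29, adjusted p = 0.0394), with saline 3 highest and every saline array above the CDEP arrays. Cyp2d22 fell by 0.68 ± 0.16, Fmo5 by 0.64 ± 0.12 and Cyp4b1 by 0.30 ± 0.09; the Fmo5 call alone held, and 1 to 5 of the 18 passed with 1 array left out. The lung P450 Cyp2f2 was at -0.27 ± 0.11 (adjusted p = 0.141) and Fmo1 at -0.49 ± 0.15 (adjusted p = 0.0588).

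The sodium channel subunit Scn3b (-0.81 ± 0.20) and the calcium channel Cacna1d (-0.48 ± 0.13) fell among 15 excitable channel genes. Scn3b was at -0.43 without saline 1 (adjusted p = 0.118). Without CDEP 2, CDEP 3 or saline 1, 0 of the 15 passed, so both calls were lost. The glutamate receptor Gria1 (-0.73 ± 0.16), the cAMP sensor Rapgef3 (-0.72 ± 0.17), the cGMP kinase Prkg2 (-0.67 ± 0.19), the prohormone protease Cpe (-0.79 ± 0.14) and the scavenger receptor Scara3 (-0.79 ± 0.19) fell as well, of which only Cpe held. The remaining genes of the 25 lowest were the amylase Amy1 (-0.73 ± 0.13, dim in both groups), Klhl13 (-0.71 ± 0.16), the kinase Dmpk (-0.70 ± 0.17), the imprinted gene Peg3 (-0.69 ± 0.18) and the chromatin remodeller Chd6 (-0.67 ± 0.18); Amy1 held and the others lost their calls without saline 1 and at least 2 other arrays. Among 28 Wnt pathway genes the secreted inhibitor Wif1 (-0.66 ± 0.17, dim in both groups) and the ligand Wnt11 (-0.38 ± 0.11) fell; with any array other than saline 2 left out, 0 of the 28 passed. None of 28 TGF-beta and BMP genes passed (median -0.12).

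Heart muscle genes also stood lower after CDEP. Of 24 genes 2 fell, Pln (-0.63 ± 0.16) and Actc1 (-0.53 ± 0.15), and the median was -0.51, or -0.24 without saline 3, when 0 of the 24 passed. Myh6 stood at 9.64, 9.70 and 9.59 after CDEP and 10.27, 9.80 and 10.81 after saline, with saline 3 the highest. Fat tissue genes had a median of -0.39 with 0 of 11 past the test, and Adipoq stood at 5.09, 5.21 and 5.74 after CDEP and 6.43, 5.97 and 7.29 after saline. With the mean levels of heart and fat genes as covariates, 157 genes were higher and 124 lower. The part of heart muscle and fat in the single changes was not tested beyond that fit.

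Lists of allergic, interferon and lymphocyte genes held no calls after CDEP alone. Of 16 eosinophil and type 2 response genes 0 passed (median 0.03) and 11 were dim in both groups; Il13 was at -0.18 ± 0.10, Il5 at -0.04 ± 0.12 and Epx at -0.05 ± 0.11. Of 24 interferon-inducible genes 0 passed (median 0.15, or -0.02 with the RNA quality covariates). B cell, T cell, NK cell and mast cell lists of 10, 11, 8 and 11 genes gave 0 calls, with Cd79a at -0.15 ± 0.25 and Cd3e at 0.03 ± 0.11. None of 22 immediate early genes passed (median 0.09) at this single time point.

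CDEP was also given together with OVA to 3 mice, and 3 others received OVA without particles, which gives a second comparison that shares no array with the first. The RNA quality difference ran the other way there: Gapdh was 0.396 ± 0.196 with CDEP and OVA and 0.185 ± 0.156 with OVA (exact permutation p = 0.3), and Actb 1.02 ± 0.193 and 0.816 ± 0.093 (exact permutation p = 0.2). The heart score ran the same way, 7.23 ± 0.168 against 7.9 ± 0.0734 (exact permutation p = 0.1). In this comparison 449 genes were higher (3.62%) and 145 lower (1.17%). Of the 283 genes that rose after CDEP alone, 250 (88.3%) were above 0 with OVA, against 46.9% of all genes, and 99 (35.0%) were called higher, which is 22% of the 449. None was called lower. Of the 218 genes that fell after CDEP alone, 150 (68.8%) were below 0 with OVA, against 53.1% of all genes, and 7 were called lower (3.21%), which is 4.83% of the 145. The median log2 fold change went from 0.53 to 0.30 in the higher genes and from -0.46 to -0.09 in the lower genes. These genes were picked by their change without OVA, so smaller medians can follow from that choice alone. The medians therefore do not show that OVA weakened the change.

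**Figure D4:**
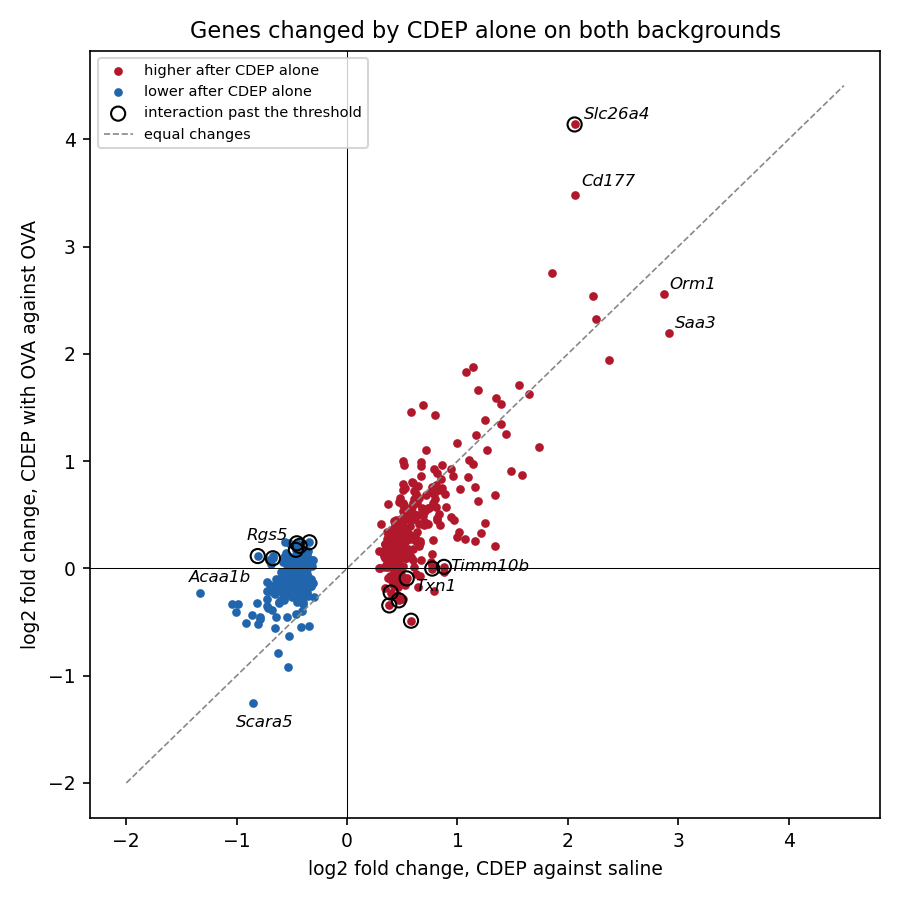
Each point is 1 of the 501 genes called after CDEP alone, with its log2 fold change of CDEP against saline on the x axis and of CDEP with OVA against OVA on the y axis; the dashed line marks equal changes and black rings mark genes whose interaction passed. The red genes lie mostly above 0 on the y axis (250 of 283), and the blue genes cluster near 0 (median -0.09). The genes were picked by the comparison on the x axis.

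Leading inflammatory genes and chaperones passed the test on both backgrounds. With OVA, Saa3 changed by 2.19 ± 0.49, Orm1 by 2.56 ± 0.38, Cxcl1 by 2.32 ± 0.33, Timp1 by 2.54 ± 0.35 and Ccl2 by 1.38 ± 0.22, all past the threshold (adjusted p = 0.00816, 0.000161, 0.000116, 7.15e-05 and 0.000294). The chaperones Manf (0.93 ± 0.15, adjusted p = 0.000383) and Hspa5 (0.72 ± 0.12, adjusted p = 0.000756) rose there too, with 13 of 22 chaperone list genes higher. Surfactant and type 2 cell genes had a median of 0.10 with OVA against 0.55 alone, and 1 of the 17, Slc26a4, passed the interaction test. S100a8 (0.33 ± 0.28, adjusted p = 0.572), Mt2 (0.21 ± 0.31, adjusted p = 0.77), Ccr2 (0.28 ± 0.20, adjusted p = 0.496) and Csf2 (0.34 ± 0.13, adjusted p = 0.17) did not pass with OVA, but their difference between the backgrounds was not past the interaction test either (adjusted p = 0.344, 0.277, 0.242 and 0.12). Of the lower genes, Scara5 (-1.26 ± 0.20, adjusted p = 0.000444), Actc1 (-0.92 ± 0.15) and Pln (-0.79 ± 0.16) fell with OVA as well, while Acaa1b was at -0.23 ± 0.24 (adjusted p = 0.656; interaction adjusted p = 0.161).

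The interaction test, which asks whether the CDEP change differed between the backgrounds, was passed by 46 genes (0.371%), of which 14 were called after CDEP alone. Slc26a4 rose further with OVA (4.14 ± 0.29, interaction 2.08 ± 0.41, adjusted p = 0.0215). Txn1, Timm10b and Tmem243, which rose after CDEP alone, were at -0.09 ± 0.08, -0.0018 ± 0.10 and 0.01 ± 0.13 with OVA (interaction adjusted p = 0.0125, 0.0125 and 0.0315). Rgs5 and Tal1, which fell alone, were at 0.12 ± 0.14 and 0.09 ± 0.11 (interaction adjusted p = 0.0315 and 0.0226). Most interaction genes were those that CDEP changed with OVA but not alone, such as Chil4 (0.08 ± 0.27 alone, 3.62 ± 0.27 with OVA), Cxcl9 (-0.01 ± 0.33 and 2.86 ± 0.33) and Muc5ac (0.23 ± 0.18 and 1.93 ± 0.18). With the RNA quality covariates 13 genes passed the interaction test.

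**Figure D5:**
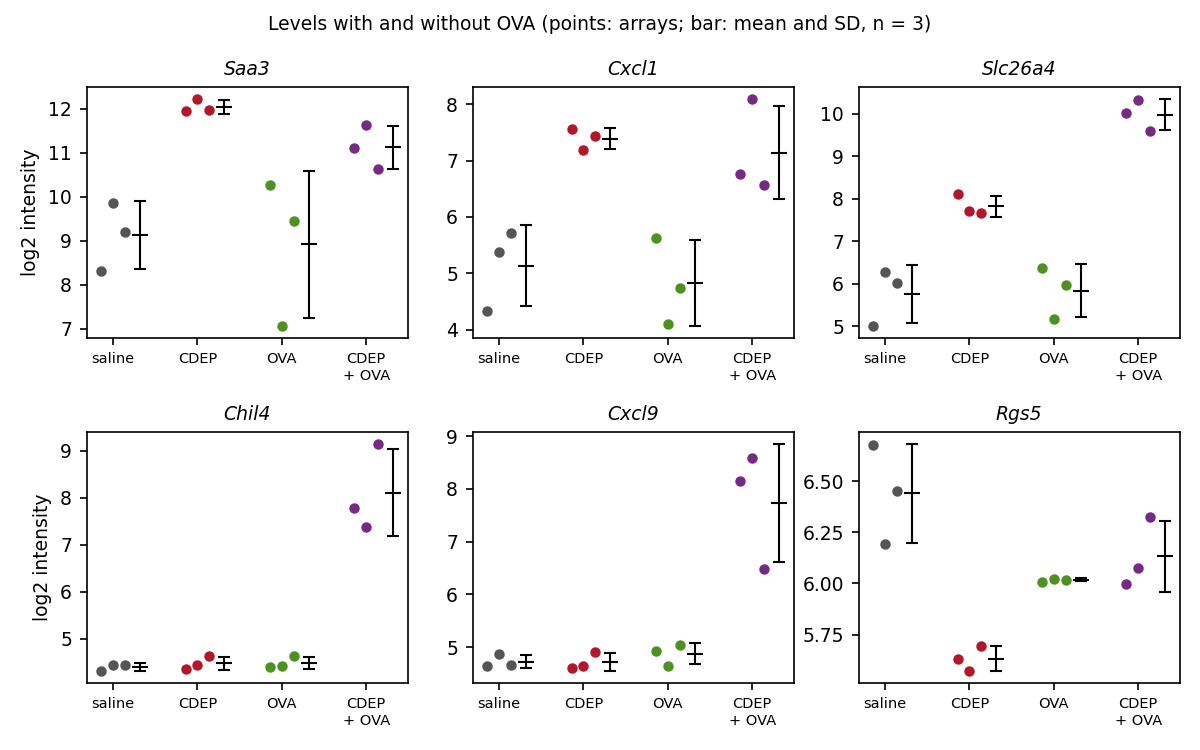
Log2 intensity (y axes, each with its own range) of 6 genes on each array of the saline, CDEP, OVA and CDEP with OVA groups, with mean and SD. Saa3 and Cxcl1 are higher with CDEP on both backgrounds, Slc26a4 is highest with CDEP and OVA, Chil4 and Cxcl9 are high only in the group given CDEP with OVA among these 4, and Rgs5 is lower after CDEP alone.

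CDEP was set directly against the other particles at the same dose and time, in 2 comparisons whose p-values were adjusted separately over all genes. Between CDEP and NDEP 0 genes passed by limma (734 at an unadjusted p under 0.05, 5.92%), and between CDEP and ADEP 0 passed (828 unadjusted, 6.68%). The smallest p against NDEP was that of Slc40a1, at -0.64 (CDEP minus NDEP) with a 95% interval of the log2 difference from -0.90 to -0.39 that is not adjusted for the number of genes (adjusted p = 0.252). Vnn1 followed at -0.72 (interval -1.09 to -0.35, adjusted p = 0.575). Against ADEP the smallest was the heart actin Actc1 at -0.66 (interval -0.96 to -0.35, adjusted p = 0.423), a gene of the heart list above. For the leading genes the intervals were wide: CDEP minus NDEP ran from -0.71 to 1.31 for Saa3, from -0.82 to 0.56 for Cxcl1 and from -0.66 to 0.25 for Cyp1b1, and CDEP minus ADEP from -0.69 to 1.33, -0.34 to 1.04 and -0.42 to 0.48. A difference of up to about these bounds between the particles is therefore not shown to be absent. The 3 particles share the saline arrays as control, so their own changes are only set side by side: Saa3 stood 2.92 ± 0.49 above saline after CDEP, 2.61 ± 0.49 after NDEP and 2.60 ± 0.49 after ADEP, and Orm1 2.87 ± 0.38, 2.998 ± 0.38 and 3.03 ± 0.38. Cyp1b1 stood at 0.97 ± 0.22, 1.17 ± 0.22 and 0.93 ± 0.22, and Rgs5 at -0.81 ± 0.14, -0.80 ± 0.14 and -0.47 ± 0.14.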

How the data were processed

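Lung RNA of 24 mice was measured on 24 Affymetrix 1-colour arrays, from 2 ug of total RNA each, per the labels' protocols. The authors deposited RMA-normalized intensity values, 1 per probe set and array, per the submitters' processing notes, and no source used here gives the RMA version. The deposited intensities, 5.98 to 18195.5 with array medians of 72.2 to 75.5, are linear, so log2 was taken; the plan had taken them to be log2 already. The number of arrays limits the precision, and RMA tends to shrink the changes of dim genes.

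The array held 22690 probe sets, of which 64 were controls, 20380 had 1 gene symbol, 691 several and 1555 none; for each of 12393 genes the brightest probe set by its mean log2 over the 24 arrays stood for the gene. Gene symbols are those of the platform annotation, and 12369 identifiers stood in the RefSeq gene table. For 66 named genes past the threshold, 108 other probe sets existed, of which 85 had the same sign and 23 passed as well. limma 3.58.1 in R 4.3.3 fitted 8 group means to the 24 arrays (eBayes, two-sided, 16 residual and 8.16 prior degrees of freedom), with Benjamini-Hochberg adjustment over the genes of each comparison. Single scores of groups were compared by exact permutation tests. Python 3.11.15 with pandas 2.3.3 and scipy 1.17.1 did the rest. No 2 arrays were copies: the highest share of identical values was 0.0353%.

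The genes named are the 25 highest and 25 lowest called genes without overlap, the 10 with the smallest p, and members of 56 gene lists. The genes and lists were chosen with earlier results of these data known, so they are no independent evidence. Direct comparisons and the interaction name the smallest p-values. Of 7 promoter motifs searched, 3 are described above, by name. Among the rest, a loosened C/EBP site (36.8% of all promoters) was in 8 of 9 called acute phase genes and 0 of 7 chaperones. It was in 4 of 5 monocyte chemokine genes, 1 of 3 neutrophil chemokine genes and 3 of 6 translocation and glycosylation genes. The antioxidant response element core (10.2% of all promoters) was in 4 of 6 translocation and glycosylation genes, 1 of 7 chaperones and 1 of 9 acute phase genes. Alternatives were all probe sets, their mean, a filter on dim genes, a pseudocount of 32, quantile normalization, median centring, a trended robust variance, array weights, only the 6 arrays, a replicate block, RNA quality, heart and fat covariates, and leaving out each array; each quality covariate alone was added after seeing the data.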

Additional observations from a re-analysis of the deposited data

Results flagged for a closer look

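The effect of CDEP differed between the OVA and saline backgrounds for 46 genes by limma's interaction test, 32 of them with a more positive and 14 with a more negative log2 fold change with OVA. Among the 10 with the smallest p, the interaction log2 difference was 3.54 for Chil4, a chitinase-like protein of allergic lung, 3.10 for the arginase Arg1 and 2.30 for the ribonuclease Rnase2a. It was 2.87 for the interferon-induced chemokine Cxcl9, 2.31 for Gbp6 and 1.93 for Gbp8, which are interferon-induced GTPases. It was 1.81 for Scin, 1.70 for the mucin Muc5ac, 1.33 for the eosinophil chemokine Ccl11 and -0.91 for Rraga. None of these 10 passed after CDEP alone.

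Of the 14 interaction genes called after CDEP alone, Slc26a4 had a larger rise with OVA, by 2.08. Genes that rose alone and did not pass with OVA gave differences of -0.63 (Txn1), -0.77 (Timm10b), -0.86 (Tmem243), -1.07 (Rps4l), -0.73 (Ndufa4), -0.77 (Mgst3) and -0.62 (Cacna1b). Genes that fell alone and did not pass with OVA gave 0.64 (2410004B18Rik), 0.77 (Tal1), 0.92 (Rgs5), 0.69 (Tstd2), 0.64 (Zfp472) and 0.58 (Nup210). RNA quality differed in opposite directions between the groups of the 2 backgrounds, and its part in these differences was not tested beyond the fit with covariates, in which 13 genes passed. No array was set aside as an outlier, and with 1 array left out 17 to 73 genes passed the interaction test.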

How the results depend on the processing

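The counts after CDEP alone (283 higher, 218 lower) moved by over 1.5 times in the following fits, whose causes were not tested unless the setting shows it. All probe sets gave 507 and 367 (more features tested), array weights 662 and 788, only the 6 arrays 96 lower (fewer degrees of freedom), heart and fat covariates 157 and 124, RNA quality covariates 3 and 0, Gapdh alone 40 and 11, and Actb alone 0 and 0. With 1 array left out, 92 to 315 were higher and 39 to 288 lower. The interaction count was 13 with RNA quality covariates and 17 to 73 with 1 array left out. CDEP with OVA against OVA gave 166 to 464 higher and 51 to 123 lower, and CDEP against NDEP or ADEP 0 in every such fit. No named gene past the threshold changed direction in the fits that give 1 value a gene (4 genes have no value under the filter on dim genes); of 108 other probe sets of 66 such genes, 85 had the same sign. Of 168 named calls, 71 passed without saline 1, 3 with RNA quality covariates and 112 with heart and fat covariates.

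The main fit did not pair the mice by replicate number, and whether the numbers mark pairs is not known. Same-numbered saline and CDEP arrays correlated at 0.127, -0.00732 and 0.123 in their deviations from the group means. Differently numbered arrays of these groups correlated at -0.134 to 0.042. With the replicate number as a block, 300 genes were higher and 249 lower, and 163 of 168 named calls passed.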
